A study of Mus musculus with 12 samples.

Results

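The IL-10 and gp130 families are groups of secreted cytokines and the receptor chains that bind them. They were followed in mouse CD4+ T cells, also called helper T cells, during the first hours of exposure to IL-12. The set was defined by gene symbol: Il10, Il22 and Il24 with the receptor chain Il10ra from the IL-10 family, and Lif and Osm with Il6ra, Il6st and Il27ra from the gp130 family, which makes 9 genes. Of these, 8 had a probe set of their own among the 19752 genes measured, and Il22 was covered by 2 probe sets that it shares with a near-identical copy, Iltifb. The set was chosen with earlier results of these data known, so its counts describe these genes and not the families.

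IL-10 family cytokines signal through paired receptor chains, Janus kinases and mainly STAT3. Activated helper T cells make IL-10, which restrains antigen-presenting cells, and some make IL-22 and IL-24, which act mostly on epithelial cells. Cytokines of the gp130 family share the signalling chain gp130, encoded by Il6st, and differ in the partner chain that recognises the ligand. In T cells IL-6 and IL-27, read through Il6ra and Il27ra, steer helper differentiation, and the cells themselves release LIF and oncostatin M.

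Total RNA came from splenic CD4+ T cells of male C57BL/6 mice aged 6 weeks. The cells were enriched by negative selection, a step that removes other cells with antibodies and can leave some behind, and were activated for 48 h with CD3/28 beads. IL-12 (100 U/ml) was then given for 8 h to 4 samples and for 2 h to 5 samples. A further 2 samples stayed untreated for 2 h, and 1 carries the label baseline, with no culture time. No sample is labelled untreated at 8 h. Longer IL-12 exposure and longer culture thus differ together between 8 h and 2 h and cannot be told apart. IL-12, made by antigen-presenting cells, acts through STAT4 and favours the interferon-gamma-producing Th1 type. Each sample was read on 1 Affymetrix Mouse Gene 1.0 ST array, and values are log2 intensities. Nothing in the labels ties the samples of a group to separate mice or separate cultures. The p-values therefore rest on the spread among the samples alone, and that spread may be technical. In bulk RNA, fewer cells that express a gene and less of its RNA per cell cannot be told apart.

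Sample titles carry numbers, and no label says what they mean. IL-12 samples numbered 2 to 4 (2 at 8 h, 3 at 2 h) and those numbered 5 to 6 (2 at each time) formed separate runs, and the untreated samples carry 7 and 8. Arrays of 1 group correlated at a median r of 0.9979 within a run and 0.9921 across runs. Because all untreated arrays lie in the 5 to 8 run, the fit carried a term for the run. The baseline array is numbered 5 but correlated at a median r of 0.9926 with arrays 2 to 4 and 0.9893 with the other arrays of its own run. All 8 measured T cell markers of 9 listed lay at or above the 84.9th percentile on every array. Of 13 macrophage and monocyte markers 12 were measured, and at most 2 of them lay above the array median on any array. Their summed intensity was 1079 to 1157 on arrays numbered 2 to 4, against 1525 to 2260 on the IL-12 and untreated arrays numbered 5 to 8. A sum weighs the brightest markers most. Lyz2 (log2 6.66 to 9.93 over all arrays) and Cd68 (7.41 to 8.69) varied most, and Adgre1 least (5.14 to 5.36). Differences in these sums, here and below, therefore rest largely on Lyz2 and Cd68. Of 7 B cell markers 6 were measured. Their sum was 1282 to 1544 on arrays numbered 2 to 4, against 1018 to 1150 on those same 5 to 8 arrays.

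Lif, encoding leukaemia inhibitory factor, which acts through LIFR and gp130, showed the widest difference of the set between 8 h and 2 h of IL-12. At 8 h its log2 intensity was 8.97, 8.99, 9.72 and 9.66 in samples 2, 3, 5 and 6. At 2 h it was 10.93, 10.91, 10.91, 10.87 and 10.90 in samples 2 to 6. Untreated samples 7 and 8 had 10.64 and 10.42, and baseline had 10.14. All 4 arrays at 8 h lay below every other array, and the 5 arrays at 2 h were nearly identical and the highest. In the limma fit Lif was 3.03-fold lower at 8 h than at 2 h (log2 -1.60 ± 0.11 SE, adjusted p = 9.59e-07), the 8th largest change of 19752 genes. Against untreated cells it was 2.06-fold lower at 8 h (log2 -1.04 ± 0.16, adjusted p = 0.00197). That value assumes the same run difference in every group, and for Lif the run difference was not the same at 2 h and 8 h. Inside numbers 5 to 8, which hold both untreated arrays, Lif was 1.79-fold lower at 8 h than untreated (log2 -0.84 ± 0.08). Between IL-12 2 h and untreated the difference was 0.56 ± 0.16 and did not pass (adjusted p = 0.666). From high to low the groups ran IL-12 2 h, untreated 2 h, baseline and IL-12 8 h. All 5 arrays at IL-12 2 h lay above both untreated arrays, although that difference missed the adjusted threshold, as did untreated against baseline (0.39 ± 0.21, adjusted p = 0.29).

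Il6ra encodes the chain that binds IL-6 and hands it to gp130. Its log2 intensity at 8 h of IL-12 was 9.47, 9.37, 9.70 and 9.57 in samples 2, 3, 5 and 6. At 2 h it was 10.00, 10.08, 9.98, 10.26 and 10.26 in samples 2 to 6. Without IL-12 it was 10.43 and 10.30 in samples 7 and 8, and 9.56 at baseline. The 8 h arrays lay below all IL-12 2 h and untreated arrays and on both sides of the baseline array. Il6ra was 1.53-fold lower at 8 h than at 2 h (log2 -0.61 ± 0.06, adjusted p = 1.07e-05) and 1.65-fold lower at 8 h than in untreated cells (log2 -0.73 ± 0.08, adjusted p = 0.000123). With the baseline array pooled with untreated the 8 h difference was -0.46 and did not pass (adjusted p = 0.312). IL-12 2 h against untreated did not pass (-0.11 ± 0.08, adjusted p = 0.999).

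Il6st, the gene of gp130 itself, had log2 intensities of 11.12, 11.20, 10.89 and 10.99 at 8 h in samples 2, 3, 5 and 6. At 2 h the values were 11.55, 11.60, 11.51, 11.33 and 11.28 in samples 2 to 6, against 10.92 and 10.99 in untreated samples 7 and 8 and 10.71 at baseline. Every 2 h array with IL-12 was above every other array, and 8 h overlapped untreated. Il6st fell by 0.38 ± 0.05 on the log2 scale at 8 h relative to 2 h (adjusted p = 0.000385). At 2 h of IL-12 it stood 0.35 ± 0.07 above untreated, with an unadjusted p of 0.000311 and an adjusted p of 0.181, so this difference did not pass over all genes. At 8 h against untreated it was -0.03 ± 0.07 (adjusted p = 0.928).

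**Figure D1:**
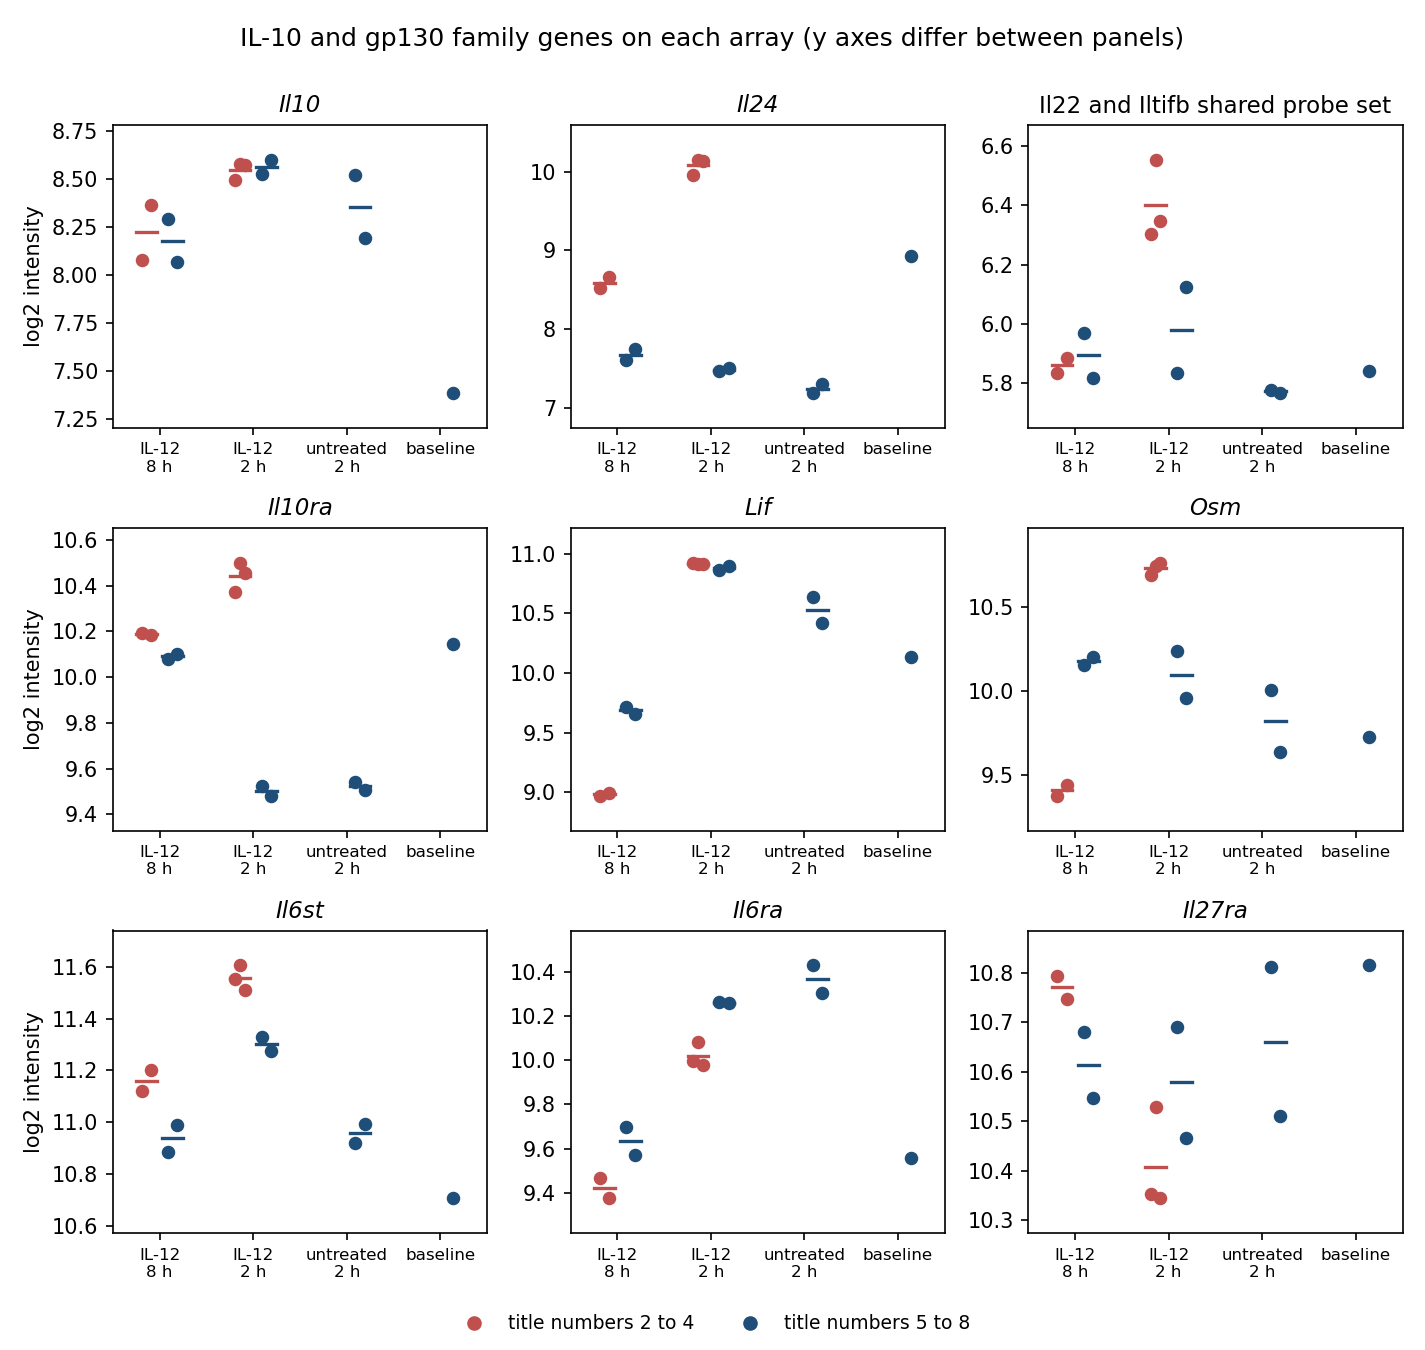
Log2 intensity (y axis, a separate range in each panel) of each measured gene, and of the first probe set shared by Il22 and Iltifb, on each array, by group (x axis); red points are title numbers 2 to 4, blue points 5 to 8, and bars are means of the arrays of 1 group and run. Lif and Il6ra lie lower at IL-12 8 h than at IL-12 2 h in both colours. At IL-12 2 h Il24, Il10ra and Osm separate most by colour, and Il6ra, Il6st and the shared probe set separate by less.

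Il10, the founding cytokine of its family, had log2 intensities of 8.08, 8.37, 8.29 and 8.07 at 8 h in samples 2, 3, 5 and 6. At 2 h it had 8.50, 8.58, 8.57, 8.53 and 8.60 in samples 2 to 6. Untreated samples 7 and 8 had 8.52 and 8.20, and baseline had 7.39. All 8 h arrays were below all 2 h arrays with IL-12, untreated arrays fell on both sides of the gap, and baseline was the lowest. Il10 fell by 0.35 ± 0.08 on the log2 scale at 8 h relative to 2 h (limma, adjusted p = 0.0105). Without sample 2 at 8 h the fall was 0.30 and did not pass (adjusted p = 0.0544). Against untreated cells neither 8 h (-0.16 ± 0.11, adjusted p = 0.586) nor 2 h of IL-12 (0.19 ± 0.11, adjusted p = 0.999) passed.

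Il24, whose product acts through receptors built with IL-20RB, gave values that separated by run. Its log2 intensity at 8 h was 8.52 and 8.66 in samples 2 and 3, and 7.60 and 7.74 in samples 5 and 6. At 2 h it was 9.96, 10.15 and 10.14 in samples 2 to 4, and 7.47 and 7.50 in samples 5 and 6. Untreated samples 7 and 8 had 7.19 and 7.30, and baseline had 8.92. Each array numbered 2 to 4 was above each IL-12 and untreated array numbered 5 to 8, and the baseline array lay above all arrays of its own run. Over both runs the change from 2 h to 8 h was -0.73 ± 0.23 and did not pass (adjusted p = 0.0563), and it passed when sample 5 or 6 was left out at either time (-0.92 to -0.87). Within numbers 2 to 4 Il24 was 2.82-fold lower at 8 h (log2 -1.50 ± 0.09, adjusted p = 1.51e-07). Within numbers 5 to 8 it differed by 0.19 ± 0.09 (adjusted p = 0.316). At 2 h of IL-12 the 2 to 4 run stood 6.06-fold above the 5 to 8 run (log2 2.60 ± 0.09, adjusted p = 2.87e-09).

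Osm, the gene of oncostatin M, gave log2 intensities of 9.37 and 9.44 at 8 h in samples 2 and 3, and 10.15 and 10.20 in samples 5 and 6. At 2 h samples 2 to 4 had 10.69, 10.75 and 10.77, and samples 5 and 6 had 10.24 and 9.96. Untreated samples 7 and 8 had 10.01 and 9.63, and baseline had 9.73. In the 2 to 4 run the times were well apart, and in the 5 to 8 run they overlapped. The fall over both runs, 0.69 ± 0.21 on the log2 scale, passed narrowly (adjusted p = 0.0408). With title number as a block it was -0.62 and did not pass (adjusted p = 0.185), and leaving out sample 2, 3 or 4 at 2 h or sample 2 or 3 at 8 h also ended the call (-0.63 to -0.51, adjusted p from 0.0929 to 0.18). Within numbers 2 to 4 Osm fell by 1.33 ± 0.11 at 8 h (2.51-fold, adjusted p = 3.54e-06). Within numbers 5 to 8 it differed by 0.08 ± 0.12 (adjusted p = 0.795).

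Il10ra encodes the chain of the IL-10 receptor that binds the ligand. At 8 h its log2 intensity was 10.19 and 10.18 in samples 2 and 3, and 10.08 and 10.10 in samples 5 and 6. At 2 h it was 10.37, 10.50 and 10.46 in samples 2 to 4, and 9.52 and 9.48 in samples 5 and 6. Untreated samples 7 and 8 had 9.54 and 9.51, and baseline had 10.14. The 2 h arrays of the runs lay on opposite sides of all 8 h arrays. Over both runs the difference was 0.13 ± 0.12 (adjusted p = 0.611), which averages changes of opposite direction. Within numbers 2 to 4 Il10ra fell by 0.25 ± 0.07 at 8 h (adjusted p = 0.03). Within numbers 5 to 8 it rose 1.50-fold at 8 h relative to 2 h (log2 0.59 ± 0.08, adjusted p = 0.00056). There it was also 1.48-fold above untreated cells (log2 0.57 ± 0.08, adjusted p = 0.00071).

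Il27ra encodes the IL-27 receptor chain that pairs with gp130. Its log2 intensity was 10.79, 10.75, 10.68 and 10.55 at 8 h in samples 2, 3, 5 and 6, and 10.35, 10.53, 10.34, 10.69 and 10.47 at 2 h in samples 2 to 6. Untreated samples had 10.81 and 10.51, and baseline had 10.82. The groups overlapped, and none of the 4 comparisons between groups passed over all arrays (8 h against 2 h 0.21 ± 0.09, adjusted p = 0.142). Without sample 5 at 2 h the last difference was 0.29 and passed (adjusted p = 0.0423). Within numbers 2 to 4 it rose by 0.36 ± 0.10 at 8 h (adjusted p = 0.0366), and within numbers 5 to 8 it differed by 0.04 ± 0.11 (adjusted p = 0.923). The difference between those changes did not pass (0.33 ± 0.15, adjusted p = 0.373).

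Il22, which encodes the epithelial barrier cytokine IL-22, has no value of its own here, because its probe sets also read Iltifb. On the first shared probe set log2 intensity at 8 h was 5.83, 5.88, 5.97 and 5.82 in samples 2, 3, 5 and 6. At 2 h it was 6.30, 6.55, 6.35, 5.83 and 6.12 in samples 2 to 6, against 5.78 and 5.77 in untreated samples and 5.84 at baseline. Samples 2 to 4 at 2 h were the highest, and the rest lay close together. These probe sets are dim, between the 20.0th and 34.9th percentile of the arrays. In a fit over all 24922 probe sets the first passed between 8 h and 2 h (log2 -0.33 ± 0.10, adjusted p = 0.0421) and the second did not (-0.29 ± 0.10, adjusted p = 0.0771), with 11.4% of all probe sets called. Within numbers 2 to 4 both were lower at 8 h, by 0.54 and 0.50 on the log2 scale (adjusted p = 0.00435 and 0.00868), where 10.4% were called. A probe set annotated to Iltifb alone, between the 7.1th and 19.8th percentile, did not pass in these comparisons.

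Counted over the 8 genes with a probe set of their own, 5 fell and 0 rose at 8 h relative to 2 h of IL-12, where 12.6% of all genes were called. Their median log2 change was -0.50, against -0.01 over all genes. The set was chosen with earlier results of these data known, so the count describes these genes and not the families. Of 23 other measured family genes 2 fell. In the same comparison 0 of 12 macrophage and monocyte markers and 0 of 6 B cell markers passed, and 2 of 4 NK cell markers did, Ncr1 higher (0.38) and Klrb1c lower (-0.67). Of 8 T cell markers 2 were higher (Cd28 and Cd3d). The 4 NK cell markers lay below the array median on every array, with sums of 130 to 141 at 8 h against 137 to 145 at 2 h in numbers 2 to 4, and 175 to 184 against 177 to 199 in numbers 5 to 8. The part of these markers in the results was not tested. With the mean macrophage marker as a covariate Il10 (-0.29, adjusted p = 0.0806) and Osm (-0.58, adjusted p = 0.192) no longer passed. Their SEs were wider there, at 0.089 against 0.081 for Il10 and 0.235 against 0.205 for Osm. The lost calls therefore do not show what these markers account for. An exact permutation test of arrays within runs, two-sided, gave p = 0.0167 for Lif, Il6ra, Il6st and Il10, the smallest that its 60 arrangements allow. The same test gave 0.0667 for Osm and Il27ra, 0.1 for Il24 and 0.333 for Il10ra. At 8 h relative to untreated cells 2 fell (Lif and Il6ra) and 0 rose, where 3.16% of genes were called and Klrb1c was lower (-0.88), with a median of -0.03 against -0.01 over all genes. IL-12 and the longer culture differ together in that comparison and cannot be told apart. Nor can longer IL-12 exposure and longer culture between 8 h and 2 h of IL-12.

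At 2 h of IL-12 relative to untreated 2 h, 0 of the 8 passed the limma test and 0.0709% of all genes were called. Unadjusted p lay under 0.05 for 4 of them (Il6st, Lif, Osm and Il24) and for 971 of all 19752 genes. The median log2 difference of the 8 was 0.28, against -0.003 over all genes. Inside numbers 5 to 8, with the spread pooled over all arrays, again 0 passed and 0.101% of genes were called, with Il6st at 0.35 ± 0.08 (adjusted p = 0.309) and Lif at 0.35 ± 0.08 (adjusted p = 0.331). Il24 and Osm, at 0.70 ± 0.32 and 0.66 ± 0.28 over all arrays, were 0.24 ± 0.09 and 0.28 ± 0.12 inside that run. The comparisons with untreated cells share the same 2 untreated arrays.

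**Figure D2:**
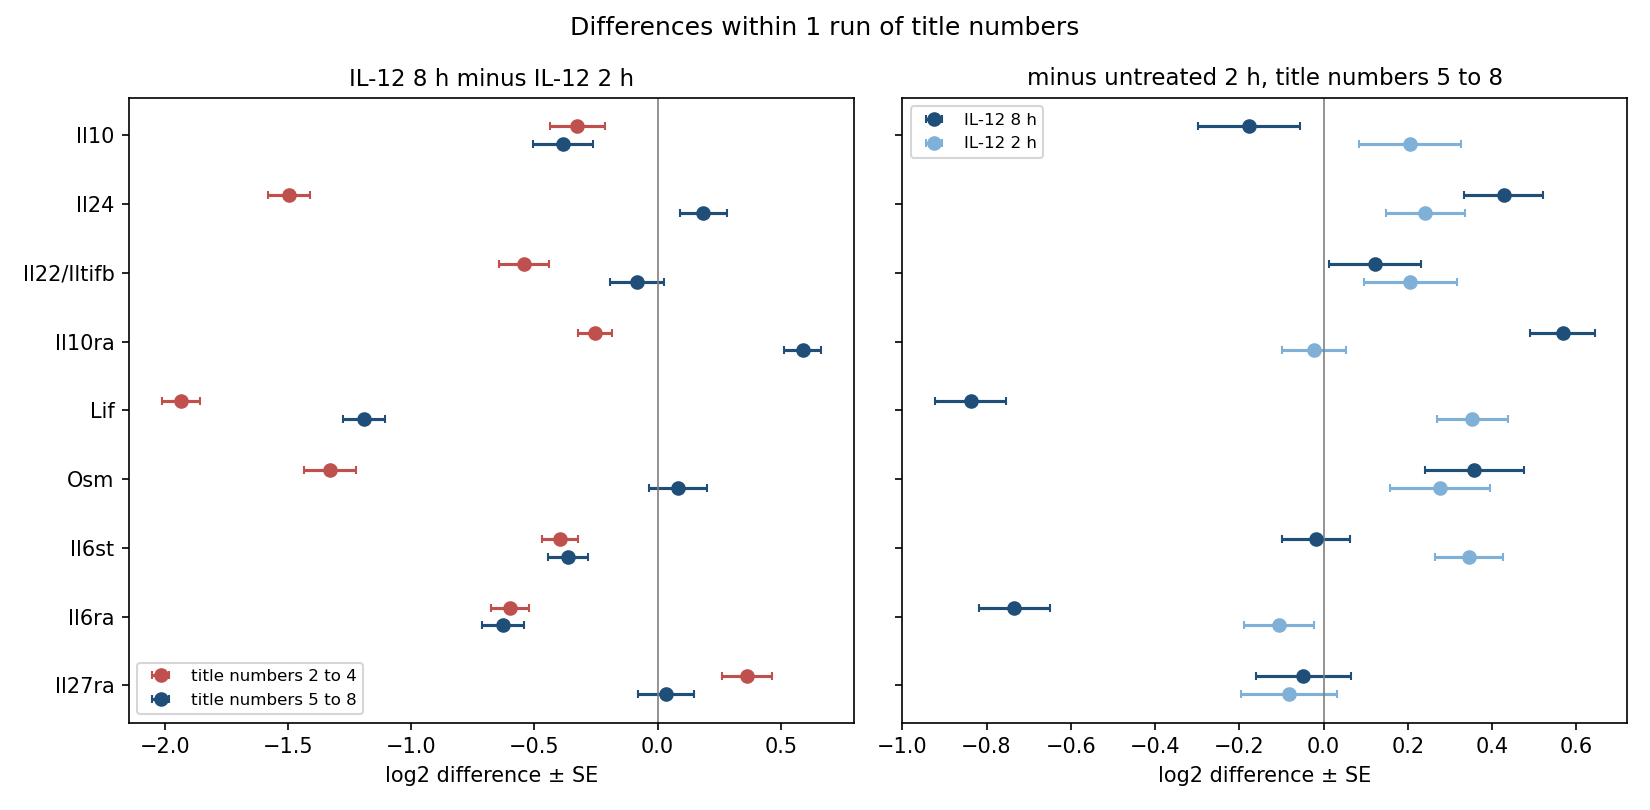
Log2 differences ± SE (x axis) inside 1 run of title numbers, by gene (rows), with Il22/Iltifb the first shared probe set. On the left, IL-12 8 h minus IL-12 2 h is shown for numbers 2 to 4 (red) and 5 to 8 (blue), and on the right IL-12 8 h (dark) and IL-12 2 h (light) minus untreated 2 h within numbers 5 to 8; Lif, Il6ra, Il6st and Il10 lie left of 0 in both runs on the left, and Il24, Osm and Il10ra do not.

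For 4 genes the change between 2 h and 8 h of IL-12 differed between the runs, tested as the change from 2 h to 8 h in numbers 2 to 4 minus that in numbers 5 to 8. The difference was -1.68 ± 0.13 for Il24 (adjusted p = 3.84e-05), the 4th largest of 19752 genes, and -1.41 ± 0.16 for Osm (adjusted p = 0.00059), the 10th largest. It was -0.84 ± 0.10 for Il10ra (adjusted p = 0.00108) and -0.74 ± 0.11 for Lif (adjusted p = 0.00489). Such a difference was called for 1.79% of all genes. Lif fell in both runs, by 1.94 ± 0.08 in numbers 2 to 4 and by 1.19 ± 0.08 in numbers 5 to 8. Il10, Il6ra and Il6st had differences of 0.06 ± 0.16, 0.03 ± 0.11 and -0.03 ± 0.11 between runs, and none passed.

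Inside numbers 2 to 4, where 11.7% of genes were called at 8 h against 2 h, 6 of the 8 genes fell and 1 rose. Il10 was the exception (-0.33 ± 0.11, adjusted p = 0.079). Inside numbers 5 to 8, where 5.61% were called, 3 fell (Lif, Il6ra and Il6st) and 1 rose (Il10ra). In a fit of numbers 5 to 8 alone, without the spread of the other arrays, the fall of Il6st was 0.36 and did not pass (adjusted p = 0.105). At 8 h against untreated inside numbers 5 to 8, where 4.26% were called, Lif fell by 0.84 ± 0.08 and Il6ra by 0.73 ± 0.08. Il10ra rose there, as given above, and so did Il24 by 0.43 ± 0.09 (adjusted p = 0.0208), a call that the fit of those arrays alone did not give (adjusted p = 0.078). The summed macrophage and monocyte markers in that run were 1525 to 1748 at 8 h, against 1990 to 2260 in untreated cells. Taken singly, 0 of the 12 measured markers passed at 8 h against untreated over all arrays. With the mean of these markers as a covariate the fall of Lif against untreated over all arrays was 0.83 ± 0.20 and did not pass (adjusted p = 0.111). Without the covariate it was 1.04 ± 0.16. The SE was wider with it, so the lost call does not show what these markers account for.

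**Figure D3:**
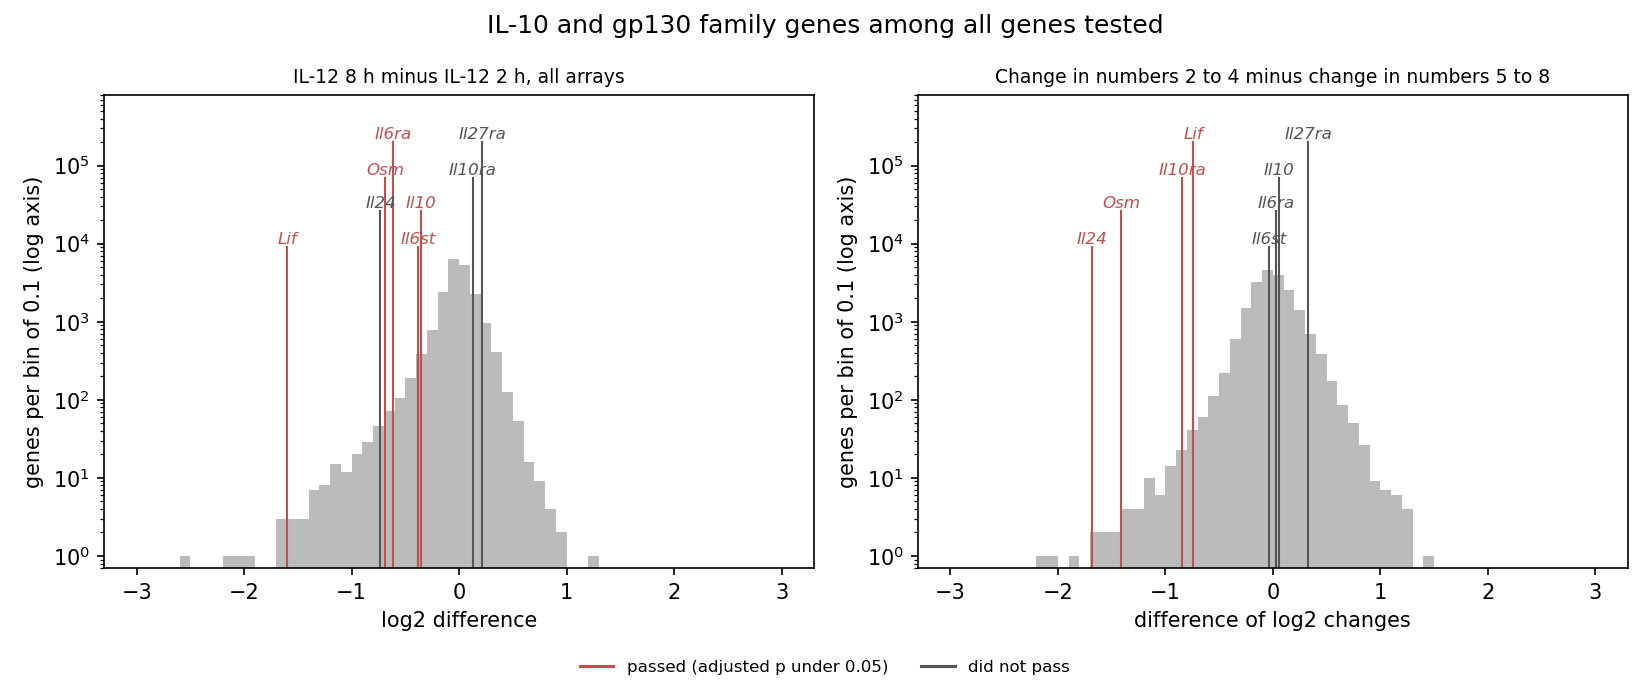
Number of genes (y axis, log scale) in bins of log2 change, for IL-12 8 h minus IL-12 2 h on the left and for the difference of that change between runs of title numbers on the right; vertical lines mark the 8 measured genes, red where the adjusted p was under 0.05. Lif at -1.60 lies far out on the left panel, and Il24 at -1.68 and Osm at -1.41 lie far out on the right panel.

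Levels themselves also differed between the runs. With the groups in the fit, Il24 (1.83 ± 0.23), Il10ra (0.56 ± 0.12) and Il6st (0.24 ± 0.05) were higher in numbers 2 to 4 than in numbers 5 to 8, and Il6ra was lower (-0.23 ± 0.06). Lif, at -0.30 ± 0.11 (adjusted p = 0.0693), passed when sample 5 or 6 at 2 h was left out (-0.40 and -0.38). That is 4 of 8 genes, where 24.3% of all genes were called. At 2 h of IL-12 alone, Il24, Il10ra, Osm and Il6st were higher in numbers 2 to 4 and Il6ra was lower, where 20.7% of genes were called. At 8 h alone, Il24 was higher in numbers 2 to 4 (0.92 ± 0.09), while Lif (-0.71 ± 0.08) and Osm (-0.77 ± 0.12) were lower, where 11.5% were called. Of the macrophage and monocyte markers 1 was higher and 5 were lower in numbers 2 to 4, and of the B cell markers 5 were higher. All 4 measured NK cell markers of 5 listed were lower there. With the mean macrophage marker as a covariate, 0 of the 8 genes passed between runs, with SEs wider than without it. Il24 then stood at 2.18 ± 0.67 (adjusted p = 0.273) and Il10ra at 0.80 ± 0.35, both larger than without it. Il6st (0.12 ± 0.15) and Il6ra (-0.07 ± 0.16) were smaller. The marker mean itself separated the runs, at 6.34 to 6.45 in numbers 2 to 4 and 6.51 to 6.86 in numbers 5 to 8. This fit therefore cannot divide the difference between run and markers. Whether other cells carry part of the run difference was not tested.

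Relative to the single baseline array, untreated 2 h cells had more Il10 (log2 0.97 ± 0.15, adjusted p = 0.000829) and more Il6ra (0.81 ± 0.10, adjusted p = 0.000261), and less Il24 (-1.68 ± 0.43, adjusted p = 0.0212). These are 3 of 8 genes, where 10.2% of all genes were called, and the spread comes from the other groups. Il10 (0.98, adjusted p = 0.0108) and Il6ra (0.58, adjusted p = 0.0322) also passed with the baseline array set with numbers 2 to 4. The value for Il24 turns on the run given to the baseline array: set with numbers 2 to 4 it was 0.16 (adjusted p = 0.971). Leaving out either untreated array also ended the Il24 call (adjusted p = 0.0733 without sample 7 and 0.0566 without sample 8). Summed macrophage and monocyte markers were 1990 to 2260 in untreated cells, against 1243 at baseline, and summed B cell markers were 1044 to 1048 against 1503. Of single markers Ms4a1, Cd22 and Pax5 of B cells were lower in untreated cells, and Lyz2 and Cd68 of macrophages, Itgax of dendritic cells, Ncr1 and Klrb1c of NK cells and Cd8b1 of CD8 T cells were higher. None of these 9 markers passed with baseline set with numbers 2 to 4. Their part in the results was not tested. With the mean macrophage marker as a covariate none of the 3 genes passed (Il10 0.66 ± 0.24, Il6ra 0.65 ± 0.18 and Il24 -2.02 ± 0.75). All 3 SEs were wider there, and the Il24 difference was larger, so the lost calls do not show what these markers account for.

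Promoter windows of Lif, Il6ra and Il6st are shown because these genes fell at 8 h relative to 2 h in both runs, Il6st in numbers 5 to 8 by the pooled spread only. The RefSeq promoter table used here holds a window for 4 of the 9 genes, each running from 250 bases before the transcription start to 50 after it, on GRCm38.p6. Capitals mark a match to TGANTCA, the AP-1 motif, where AP-1 is the Fos and Jun factor induced by T cell activation.
Lif, chr11:4257318-4257617, plus strand: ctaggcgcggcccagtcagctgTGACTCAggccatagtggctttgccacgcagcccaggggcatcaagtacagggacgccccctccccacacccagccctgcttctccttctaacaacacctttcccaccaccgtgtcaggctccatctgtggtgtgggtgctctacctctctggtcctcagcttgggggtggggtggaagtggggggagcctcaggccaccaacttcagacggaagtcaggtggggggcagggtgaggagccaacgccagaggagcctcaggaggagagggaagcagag
Il6ra, chr3:89913147-89913446, minus strand: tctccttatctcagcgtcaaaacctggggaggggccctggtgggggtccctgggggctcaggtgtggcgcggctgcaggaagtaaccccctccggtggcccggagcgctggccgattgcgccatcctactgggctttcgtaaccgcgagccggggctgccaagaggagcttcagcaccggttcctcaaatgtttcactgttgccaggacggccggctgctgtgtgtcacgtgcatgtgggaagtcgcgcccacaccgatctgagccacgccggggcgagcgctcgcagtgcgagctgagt
Il6st, chr13:112463820-112464119, plus strand: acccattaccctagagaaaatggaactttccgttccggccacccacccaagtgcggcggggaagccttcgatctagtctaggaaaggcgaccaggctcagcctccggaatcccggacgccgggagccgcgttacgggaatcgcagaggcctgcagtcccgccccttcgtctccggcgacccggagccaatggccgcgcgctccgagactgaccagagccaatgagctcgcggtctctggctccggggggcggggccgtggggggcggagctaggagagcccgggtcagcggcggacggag
Both strands were searched for TTCNNNGAA (STAT), TGANTCA (AP-1) and TGACGTCA (CRE). Lif held 1 match, TGACTCA, starting at -228 from the transcription start, and the windows of Il6ra and Il6st held none. Of 32851 RefSeq promoter windows of the same length, 8.30% held the STAT letters, 7.81% the AP-1 letters and 1.79% the CRE letters. A match here describes the letters and not a bound site. GC content was 63.7% for Lif, 66.0% for Il6ra and 68.3% for Il6st.

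Some of these genes are neighbours. Osm and Lif are adjacent protein-coding genes on chromosome 11, and Il24 and Il10 lie on chromosome 1 with Il20 and Il19 between them. At 8 h relative to 2 h Lif fell in both runs, and Osm fell in numbers 2 to 4 with 0.08 ± 0.12 in numbers 5 to 8. Il24 was higher in numbers 2 to 4 than in numbers 5 to 8 by 1.83 ± 0.23, and Il10 differed between the runs by 0.01 ± 0.08 (adjusted p = 0.928). The difference between neighbours was not tested.

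Across the 11 arrays other than baseline, with the mean run difference of each gene removed, Il24 and Osm had the closest profiles among pairs of the 8 genes (Pearson r = 0.96, and 0.59 as measured). Removing a single value per gene leaves run differences in place where the change from 2 h to 8 h differed between runs. That holds for Il24, Osm, Il10ra and Lif, so their correlations partly reflect the runs. Lif and Il6ra had r = 0.88, and 0.86 as measured. These arrays share their groups, so the values describe these profiles. Among 9916 genes with a mean above the array median, the profile most like that of Lif was Birc3, an inhibitor of apoptosis, with Mxd1 and Atp11a at the same r of 0.992. For Il6ra they were Nr4a2 (0.988), an orphan nuclear receptor, Nfkbid (0.987) and Lnx2 (0.986). For Il24 they were Abhd17c (0.984), Sh3bp5 (0.981) and Tmem64 (0.977), and for Osm Nupr1 (0.977), Socs1 (0.975), a feedback inhibitor of Janus kinases, and Sh3bp5 (0.973). For Il6st they were Osgepl1 (0.974), Frmd4b (0.954) and Ifi203 (0.95), and for Il10 Slc25a37 (0.935), Pcgf6 (0.929) and Znrf1 (0.926).

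Of 28 other ligands and receptors of both families 23 were measured. At 8 h relative to 2 h of IL-12 2 fell and 0 rose, where 12.6% of all genes were called, with a median of -0.09 against -0.01 over all genes. They were Il12a, a subunit of IL-12 and IL-35 (-0.32 ± 0.06, adjusted p = 0.00421), and Il6 (-0.38 ± 0.08, adjusted p = 0.0046), both dim. Against untreated cells 1 was lower at 8 h, Il12a again (-0.39 ± 0.09, adjusted p = 0.0238), and at 2 h 0 passed. Il20rb, a chain of the receptors for IL-19, IL-20 and IL-24, was lower in untreated 2 h cells than at baseline (-0.37 ± 0.10, adjusted p = 0.0287), and did not pass with baseline set with numbers 2 to 4 (-0.19, adjusted p = 0.66). Only Clcf1, Ebi3, Ifnl2, Il10rb and Il20rb of the 23 lay above the array median on all 12 arrays. The other 18, among them the LIF and oncostatin M receptor chains Lifr and Osmr, did not.

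Genes of the signalling path below these receptors, with known STAT3 response genes, fell more often than they rose at 8 h relative to 2 h: 10 of 21 measured genes fell and 0 rose, where 12.6% of all genes were called, with a median of -0.20 against -0.01. Fos, a subunit of AP-1, fell by 0.92 ± 0.07 on the log2 scale (adjusted p = 1.49e-06) and Jak2, a kinase bound to gp130, by 0.59 ± 0.09 (adjusted p = 0.000493). Myc fell by 0.69 ± 0.12 (adjusted p = 0.0013), the feedback inhibitor Cish by 0.68 ± 0.13 (adjusted p = 0.00336), and Stat3 itself by 0.24 ± 0.05 (adjusted p = 0.00949). Bcl3 and Junb each fell by 0.44. The list is not specific to these cytokines, since T cell receptor signals and IL-2 act on many of its genes. Fos was also lower at 8 h than in untreated cells (-0.71 ± 0.10, adjusted p = 0.000736). Fos, Bcl6, Jak2 and Bcl3 were higher in untreated 2 h cells than at baseline, where 10.2% of genes were called, and with baseline set with numbers 2 to 4 Fos alone of these passed (0.71, adjusted p = 0.0317). As with Il24 and Osm, the change from 2 h to 8 h differed between runs for Socs2 (-1.37 ± 0.12), Cish (-0.82 ± 0.14), Myc, Socs1 and Stat5a, 5 of 21, where 1.79% of all genes were called.

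Among transcription factors known to regulate Il10 or Il22 in helper T cells, 7 of 17 measured genes fell and 0 rose at 8 h relative to 2 h, where 12.6% of all genes were called, with a median of -0.27 against -0.01. Egr2, known to promote Il10, fell by 1.30 ± 0.08 on the log2 scale (adjusted p = 2.39e-07). Ahr, the aryl hydrocarbon receptor needed for Il22, fell by 1.03 ± 0.16 (adjusted p = 0.000728), and Irf4 by 1.00 ± 0.16 (adjusted p = 0.000937). Gata3, Bhlhe40, a repressor of Il10, and Prdm1, encoding Blimp-1, fell by 0.38, 0.32 and 0.32. At 8 h relative to untreated cells, where 3.16% of genes were called, Egr2 (-1.34 ± 0.11, adjusted p = 1.05e-05) and Gata3 (-0.49 ± 0.12, adjusted p = 0.0391) fell and Tbx21, encoding T-bet, rose (0.40 ± 0.10, adjusted p = 0.0406). The change from 2 h to 8 h differed between runs for Irf4 (-1.13 ± 0.10), Ahr (-1.10 ± 0.11), Batf and Foxp3, where 1.79% of genes were called. Egr2 (1.93 ± 0.14), Ahr, Bhlhe40 and Nfatc1 were higher in untreated 2 h cells than at baseline, where 10.2% of genes were called. Prdm1 (-0.95 ± 0.18), Stat4 and Ets1 were lower. With baseline set with numbers 2 to 4 Egr2 alone of these 7 passed (1.11, adjusted p = 0.00411), and Prdm1 stood at 0.06, Ets1 at -0.08 and Stat4 at -0.24.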

How the data were processed

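RNA of 12 samples was measured on 12 arrays. The authors deposited linear-scale intensity for each of 24922 probe sets. Per the submitters' processing notes the authors used RMA and Affymetrix Power Tools, versions not stated. RMA corrects background, equalises the arrays' distributions and summarises probes, so levels are relative to each array. Which probe annotation and build they used is not given in the sources used here. Array medians were 160.6 to 167.3 intensity units.

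Values were log2-transformed with no pseudocount and no filter. GEO's platform annotation gave 1 symbol for 21425 probe sets, several for 1399 and none for 2098; gene identifiers of 21347 matched the current gene table and 78 did not. For 921 genes with several probe sets the brightest was used, which left 19752 genes. Groups and title numbers came from the labels. All arrays entered 1 limma 3.58.1 fit (R 4.3.3, lmFit and eBayes, 7 residual and 6.84 prior degrees of freedom) of 4 groups and the number run. Means per group and run gave the difference between runs and, chosen after seeing the data, contrasts inside 1 run. The same step over all probe sets, also chosen after seeing the data, served Il22. Tests were two-sided, and changed means that the p adjusted over all genes (Benjamini-Hochberg) was under 0.05. Fits were tested on simulated data.

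The baseline array's run was also changed for the further lists, after seeing the data. Genes outside the set were named by rule: from each of 3 further lists up to 8 genes called between groups, by smallest p, and for each called gene of the set the 3 genes with the highest correlation. Genes given as cell type markers, for differences between runs or for brightness, with Tbx21 and Nfatc1, fall outside that rule. The set, the lists and the tests were chosen with earlier results of these data known. Same-numbered IL-12 arrays deviated together from their group means (r = 0.365, 0.30, 0.519 and 0.372), so numbers were also fitted as a block. Once run means are removed r is -0.264 to 0.025. Among all arrays IL-12 2 h array 5 correlated most with untreated array 7 (r = 0.998), and IL-12 2 h array 6 with untreated array 8 (r = 0.9977). Those IL-12 arrays correlated with each other at 0.9966. A pairing of IL-12 with untreated arrays was not tested. Alternatives covered the run term, arrays used, baseline array, macrophage covariate, pseudocount, normalization, filter, probe set choice, array weights, variance prior and each array other than baseline left out. Plots were drawn with matplotlib 3.10.9 in Python 3.11.15.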

Additional observations from a re-analysis of the deposited data

Results flagged for a closer look

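The change between IL-12 8 h and IL-12 2 h differed between sample numbers 2 to 4 and 5 to 8 in a test of that difference itself for 4 of the 8 measured genes. The difference, numbers 2 to 4 minus numbers 5 to 8, was -1.68 on the log2 scale for Il24, -1.41 for Osm, -0.84 for Il10ra and -0.74 for Lif. Osm kept this call in 19 of 19 alternatives, and Il24, Il10ra and Lif in 18 of 19. In the IL-12 8 h and IL-12 2 h groups no array stood apart in 22 checks of single values against Dixon's 95% limit. The untreated and baseline groups hold too few arrays for that check. It pooled both runs of a group, so a gap between runs can hide a single deviating array.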

How the results depend on the processing

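Of 1056 values recomputed for single genes, 996 kept direction and side of the threshold, 38 lost the call, 17 gained it and 5 reversed; among the 996, 60 changed sign while called under neither setting. Lif and Il6ra passed between IL-12 8 h and 2 h in 25 of 25 alternatives (-1.93 to -1.19 and -0.64 to -0.58), Il6st in 24, Il10 in 19, Osm in 11 and Il24 in 7. At IL-12 2 h against untreated none of 184 values passed (smallest adjusted p = 0.0676). Giving the baseline array the other run cannot change comparisons without baseline, because that array alone sets its group mean. Values under that setting repeated the main fit there, so they are no check, although these counts include them.

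The count of genes called at 8 h against 2 h, 5, all lower, was 3 with numbers 5 to 8 alone (Lif and Il6ra lower, Il10ra higher), 3 with baseline pooled with untreated and 3 with the macrophage covariate. It was 4 with title number as a replicate block, where Osm lost its call, and the block changed no other call; untreated arrays share no number with IL-12 arrays, so no block could be fitted there. Leaving out 1 array gave 3 to 7, and 3 came without sample 2 at 8 h. Against untreated the count at 8 h, 2, was 1 with baseline pooled, 1 with the covariate and 4 inside numbers 5 to 8 with the pooled spread. There 4.26% of all genes were called, and the fit of those arrays alone gave a count of 3. The count differing between runs in their change, 4, was 1 with baseline pooled. The covariate left 0 of 3 for untreated against baseline and 0 of 4 for levels between runs, with wider SEs in both. In the main fits 12.6%, 3.16%, 1.79%, 10.2% and 24.3% of all genes were called, in the order of these counts. Shares for the other settings are not given here. A changed count there cannot be told from a general gain or loss of calls. Reversed values were Osm 0.08 (8 h against 2 h, numbers 5 to 8 in either fit), Il10ra -0.25 (numbers 2 to 4), Il24 0.43 (8 h against untreated, numbers 5 to 8) and Il24 0.16 (untreated against baseline set with numbers 2 to 4). The contrasts inside 1 run use fewer arrays, and for the other settings the cause was not tested. The 2 untreated arrays and 1 baseline array limit precision, and the Il22 probe sets are dim.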
